A study of Homo sapiens with 8 samples.

Results

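The control cells of the study were KPL-1 breast cancer cells that expressed a doxycycline-inducible Cas9 (iCas9) and carried a guide vector with no targeting sequence (sgEmpty). The labels give their genotype as WT, grown in DMEM with serum and sampled at day 7 of doxycycline. They were chosen by the sgEmpty label in the sample titles, which gave 3 of the 8 samples of the series, and no other group entered any step. RNA was taken on columns with DNase treatment and sequenced as a stranded mRNA library. Inducible Cas9, the empty vector and doxycycline were shared by all 3 libraries, so the values describe cells that express Cas9 rather than untouched cells. The labels do not say whether the replicates were separate cultures, and the spread between them may be technical. KPL-1 is listed in public registers of misidentified lines as a derivative of MCF-7, a luminal breast cancer line. Identity was not tested against any reference profile here.

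Levels are TPM values, as deposited by the authors, which are length-corrected shares of all transcripts scaled to a common total. TPM divides by transcript length, so levels of different genes can be set side by side, but it keeps no sequencing depth, and the depth of these libraries is unknown. Each value below is a level in TPM with its mean ± SD over the 3 libraries (n = 3) unless another scale is named, and a rank is the place of that mean among 19035 gene symbols. A gene was counted as expressed at a mean of at least 1 TPM, which 11800 symbols (62.0%) reached, with 11769 to 11828 in single libraries. An exact 0 is given as "listed at 0", because such an entry can also be a failed estimate; PSMB8, a subunit of the immunoproteasome, and SNRPN, a splicing protein of neurons, were among the 3455 symbols listed at 0 in all libraries. Only 1 group is described, so no test was made.

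Luminal cells line the ducts and alveoli of the breast. Their identity rests on a circuit in which the pioneer factors FOXA1 and GATA3 open chromatin for oestrogen receptor alpha (ESR1), and on the simple-epithelial keratins KRT8, KRT18 and KRT19. Basal, or myoepithelial, cells surround them and are marked by KRT5, KRT14 and TP63. Oestrogen receptor positive tumours resemble the luminal layer, and progesterone receptor (PGR) and trefoil factor 1 (TFF1) are classical readouts of a working receptor.

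The 5 markers fixed beforehand for luminal identity were at 1 TPM or more in every library. By their means 62.0% of all symbols were expressed, so passing the threshold does not by itself set identity. KRT8, which pairs with KRT18 to form the filaments of simple epithelia, was at 6504, 6077 and 6059 TPM in replicates 1, 2 and 3 (6214 ± 252, rank 13). KRT18 was at 4565, 4199.7 and 4183 (4316 ± 216, rank 29). Replicate 1 was the highest library for both keratins. GATA3, the zinc finger factor that maintains luminal differentiation, was at 676, 632 and 651 (653 ± 21.9, rank 195). FOXA1, the forkhead pioneer factor, was at 210.3, 213 and 225 (216 ± 8.11, rank 655). ESR1 itself was at 38.5, 40.3 and 40.5 (39.8 ± 1.10, rank 3727). The receptor's own transcript was therefore the lowest of the 5, and no library of ESR1 reached any library of FOXA1.

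**Figure D1:**
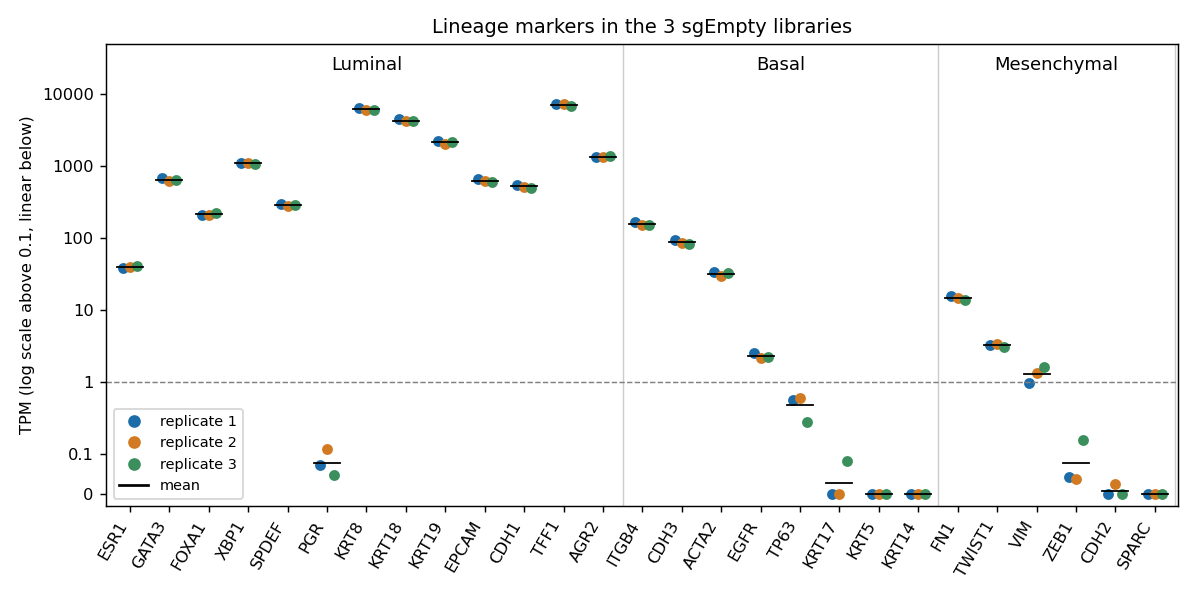
Level of luminal, basal and mesenchymal markers in each sgEmpty library, in TPM on an axis that is logarithmic above 0.1 and linear below; points are replicates 1 to 3, black bars their mean, and the dashed line marks 1 TPM. Of the luminal genes drawn only PGR lies below the line, while KRT5 and KRT14 sit at 0 in every library. The genes drawn are a selection: TFAP2B, AGR3, SCGB2A1, SCGB2A2 and SCGB1D2, also under 1 TPM, are left out.

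The promoters of a strongly and a moderately expressed marker are shown to set their sequence beside genes listed at 0 that are printed further on. Each is the 150 bases before the RefSeq start on GRCh38.p14, written 5′ to 3′ on the gene's strand, with CG dinucleotides, the sites of DNA methylation, in capitals. KRT8 lies at chr12:52926470-52926619 on the minus strand and FOXA1 at chr14:37595250-37595399 on the minus strand.
KRT8: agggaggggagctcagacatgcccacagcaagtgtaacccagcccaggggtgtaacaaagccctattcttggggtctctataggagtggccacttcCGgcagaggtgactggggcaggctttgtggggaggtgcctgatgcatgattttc
FOXA1: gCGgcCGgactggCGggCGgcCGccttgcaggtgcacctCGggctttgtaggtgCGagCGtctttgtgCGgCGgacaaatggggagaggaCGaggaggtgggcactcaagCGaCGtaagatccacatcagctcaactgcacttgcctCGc
The KRT8 window holds 1 CG, and 89.1% of the 35116 promoter windows in the RefSeq table hold as many or more. FOXA1 holds 14, which 30.3% of windows reach. The median window holds 7. Levels are per gene, and which start the cells used was not analysed here.

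Of 18 luminal transcription factors, 16 (88.9%) were expressed, against 62.0% of all symbols. Their median was 39.8 TPM, and the median over all symbols was 5.80 TPM. XBP1, a factor of the unfolded protein response and an oestrogen receptor target, was the highest of them at 1121, 1124 and 1078 (1107 ± 25.9). SPDEF, an ETS factor of secretory epithelium, stood at 296, 280.3 and 291 (289 ± 8.28). TFAP2C, an AP-2 factor of luminal cells, was nearly level at 123, 123 and 126 (124 ± 1.63). ELF5, which drives the alveolar programme, reached 10.4, 10.2 and 12.3 (10.96 ± 1.13). The factors under 1 TPM were PGR and TFAP2B (0.0475).

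Secreted and surface proteins of luminal epithelium included several of the most abundant transcripts. Of 24 measured markers 20 (83.3%) were expressed, against 62.0% of all symbols. Their median was 279 TPM, and 16 were at 100 TPM or more. TFF1, a small secreted mucosal peptide, was at 7314, 7231 and 6920.2 (7155 ± 207) and ranked 8 among all symbols, which made it 0.715% ± 0.0207 of all TPM. AGR2, a protein disulphide isomerase of the secretory pathway, was at 1342, 1355 and 1381 (1359 ± 19.8). The zinc transporter SLC39A6 varied little, at 648, 653 and 643 (648 ± 5.10). EPCAM, an epithelial adhesion molecule, was at 669.5, 627 and 598 (631 ± 36.1), and E-cadherin (CDH1) at 556, 515 and 501 (524 ± 28.6). Both adhesion transcripts were highest in replicate 1 and lowest in replicate 3, as was the tight junction gene CLDN7 (460.2, 428 and 399). The apocrine and secretoglobin genes gave a different picture: PIP was at 12.5 ± 0.386, SCGB2A1 was at 0.748, 0.338 and 0, and SCGB2A2 and SCGB1D2 were listed at 0.

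Milk protein and luminal progenitor genes were mostly under 1 TPM. Of 13 measured, 3 (23.1%) were expressed, against 62.0% of all symbols. They were ELF5, the keratin KRT15 (2.01, 3.12 and 2.54) and the aldehyde dehydrogenase ALDH1A3 (2.19, 1.58 and 1.67). The receptor KIT, the caseins CSN1S1, CSN2 and CSN3, and lactalbumin (LALBA) were among the 7 listed at 0.

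Among 34 oestrogen receptor targets, 30 (88.2%) were expressed, against 62.0% of all symbols. Of them 10 were at 100 TPM or more, and the median of the list was 42.5 TPM. After TFF1 and XBP1, the highest was CTSD, the lysosomal protease cathepsin D, at 827, 713 and 726 (756 ± 62.6). IGFBP5, which binds insulin-like growth factors, followed at 479, 444 and 430.3 (451 ± 25.1). Cyclin D1 (CCND1) was at 323, 316 and 332 (324 ± 8.24), and GREB1, a receptor cofactor, at 101, 106 and 108 (105 ± 3.47). The chemokine CXCL12 was low at 2.42, 2.63 and 2.88 (2.64 ± 0.226).

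PGR was 1 of the 4 targets under the threshold. It was at 0.0730, 0.116 and 0.0464 (0.0783 ± 0.0349, rank 13933), under 1 TPM in every library. The other targets under the threshold were HSPB8 (0.747 ± 0.0373), a small heat shock protein, PDZK1 (0.493 ± 0.101), a scaffold protein, and KRT13, listed at 0. By these levels the cells were ESR1 positive and PGR near 0 at the RNA level; receptor protein was not analysed here.

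Of 48 nuclear receptors 27 (56.25%) were expressed, with a median of 2.51 TPM over the list, both below the 62.0% and 5.80 TPM of all symbols. NR2F2, an orphan receptor also called COUP-TFII, led at 129, 129 and 136 (132 ± 4.31). RXRA, the common heterodimer partner, followed at 78.3, 75.8 and 75.5 (76.6 ± 1.54), and the retinoic acid receptor RARG was close to it at 77.3, 75.3 and 72.5 (75.03 ± 2.42). The libraries of RXRA and RARG overlap, so their order is not separated by the spread. ESRRA, an orphan receptor related to ESR1, was at 63.0 ± 2.56, the glucocorticoid receptor NR3C1 at 44.6 ± 1.64 and the vitamin D receptor VDR at 14.4 ± 0.758. Oestrogen receptor beta (ESR2) was at 0.204, 0.356 and 0.266 (0.275 ± 0.0761), under 1 TPM in each library. Of 14 oestrogen receptor coregulators 13 (92.9%) were expressed, against 62.0% of all symbols. The highest were PHB2, a repressor of the receptor that also works in mitochondria, at 352 ± 7.40, and the coactivator NCOA3 at 269, 277 and 278 (275 ± 5.12).

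Of 32 receptor tyrosine kinases and cytokine receptors 18 (56.25%) were expressed, below the 62.0% of all symbols. DDR1, a collagen receptor, was the highest at 446, 413 and 408 (422 ± 20.4). EPHB4, an ephrin receptor, was at 285, 258 and 258 (267 ± 15.5). In the ERBB family, ERBB3 was at 201, 184 and 183 (189 ± 10.1) and ERBB2, its signalling partner, at 117, 106 and 108 (110.3 ± 5.51). The other members were low, with ERBB4 at 2.25, 2.92 and 2.81 (2.66 ± 0.3599) and EGFR at 2.52, 2.16 and 2.24 (2.31 ± 0.188). ERBB4 and EGFR overlap between libraries and cannot be ordered, whereas ERBB3 lay above ERBB2 in every library. RET, the receptor of glial-derived growth factors and an oestrogen target, was at 58.8, 53.7 and 51.8 (54.8 ± 3.59). IGF1R was almost the same in all libraries, at 36.2, 36.4 and 36.3 (36.3 ± 0.0749), and the prolactin receptor PRLR was at 32.2 ± 1.87. KIT, PDGFRA and ROS1 were listed at 0.

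Surface proteins used as antibody targets overlapped with these lists, and 11 of 18 (61.1%) were expressed, near the 62.0% of all symbols. The mucin MUC1 was at 207 ± 9.0003, CD276 at 78.7 ± 3.93 and PVRL4, the older symbol of nectin 4, at 25.5 ± 1.25. The immune checkpoint ligand CD274 was at 0.0673, 0.0305 and 0.0322 (0.0433 ± 0.0208), and FOLR1, MSLN and MUC16 were also under 1 TPM.

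Keratins held 1.39% ± 0.0584 of all TPM, nearly all of it in a few members. Of 27 measured, 12 (44.4%) were expressed, against 62.0% of all symbols. KRT19, the type I keratin of ductal cells, was at 2222, 2066 and 2148 (2145 ± 77.7). The hair-type keratin KRT81 was at 776, 701 and 722 (733 ± 38.7), with KRT86 at 142 ± 8.201 and KRT83 at 11.4 ± 1.18. These hair keratins are close in sequence, so the split of reads between them is uncertain. KRT80 was at 294 ± 7.01, and KRT7 at 27.2 ± 1.64. KRT5, KRT14, KRT1 and KRT13, keratins of stratified epithelium, were listed at 0.

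Of 24 basal and myoepithelial markers 12 (50%) were expressed, against 62.0% of all symbols, with a median of 1.06 TPM. Their summed level ranged from 330.1 to 364 TPM between libraries. ITGB4, the integrin of hemidesmosomes, was at 170.3, 152 and 152 (158 ± 10.7). P-cadherin (CDH3) was at 93.4, 84.7 and 83.5 (87.2 ± 5.43), and smooth muscle actin (ACTA2) at 33.7, 30.1 and 32.5 (32.1 ± 1.85). The myosin light chain kinase MYLK was at 24.3 ± 1.41. The defining keratins KRT5 and KRT14 and the contractile gene CNN1 were listed at 0, the smooth muscle myosin MYH11 was at 0.269, KRT17 was at 0, 0 and 0.0820, and TP63 was at 0.562, 0.592 and 0.282 (0.478 ± 0.171). The basal factor FOXC1 was at 1.45, just over the threshold. ITGB4, CDH3, ACTA2 and MYLK are also known outside the myoepithelium.

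Mesenchymal markers were lower still: 5 of 14 (35.7%) were expressed, against 62.0% of all symbols. Their median was 0.0640 TPM and their summed level 21.8 to 25.5 TPM. Fibronectin (FN1) led at 15.6, 14.6 and 13.96 (14.7 ± 0.812). The factor TWIST1 was at 3.29, 3.41 and 3.07, and the calcium-binding protein S100A4 at 3.46, 4.18 and 1.84. Vimentin (VIM), the mesenchymal filament protein, was at 0.971, 1.32 and 1.63 (1.31 ± 0.328) and straddled the threshold. SNAI1, a repressor of E-cadherin, did so too, at 1.40, 1.55 and 0.821. ZEB1 (0.0783 ± 0.0665) and N-cadherin (CDH2, 0.00849) were near 0, and SPARC, MMP2 and TWIST2 were listed at 0.

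Marker lists of other cell types had at most 4 expressed members each, in every list a smaller share than the 62.0% of all symbols. The RNA came from bulk cultures, where a few cells of another type and a little RNA in every cell cannot be told apart. In the blood and immune list 1 of 15 was expressed, CD68 at 1.79, 1.36 and 1.29 (1.48 ± 0.275), a lysosomal protein that is not limited to macrophages. PTPRC, the pan-leukocyte CD45 gene, was at 0, 0.0228 and 0.0725, and the whole list summed to 2.84 to 3.60 TPM. The fibroblast list had 1 of 11, COL1A1 at 2.56, 2.65 and 3.10 (2.77 ± 0.288), and a sum of 3.66 to 4.48 TPM. The endothelial list had 1 of 8, ERG at 0.964, 1.18 and 0.876 (1.01 ± 0.159), which is at the threshold. In each of the muscle, liver and adipocyte lists 1 gene was expressed: TNNT2 of 11 (3.86 ± 1.05), SERPINA1 of 12 (2.46 ± 0.421) and PPARG of 7 (11.1 ± 0.656). The melanocyte list had 2 of 7, MITF at 3.58 ± 0.275 and PMEL at 2.15 ± 0.429. SERPINA1 was also in the oestrogen target list, and PPARG among the nuclear receptors.

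A few transcripts of other lineages stood well above the rest of their lists. Each list of this paragraph had a smaller expressed share than the 62.0% of all symbols. TUBB3, the neuronal beta tubulin, was at 237, 207 and 207 (217 ± 17.3), and the synaptic vesicle protein SYT1 at 15.3, 14.8 and 14.5 (14.9 ± 0.382). SNAP25 (2.25 ± 0.411) and GAD1 (1.41 ± 0.185) were the other expressed genes of 15 in the neural list, while NEUROD1, NEFL and NEFM were listed at 0. SOX2, a factor of stem cells, was at 14.2, 14.8 and 14.9 (14.6 ± 0.399), the only one of 10 pluripotency and germline genes at the threshold, with NANOG and LIN28A listed at 0. TMPRSS2, a membrane-anchored serine protease, was at 16.8, 16.1 and 18.6 (17.1 ± 1.31) and PAX8 at 1.70 ± 0.102 in a list of 14 gut, lung, kidney and prostate genes. None of 17 measured cancer-testis genes was expressed: 13 were listed at 0 and the highest, PRAME, was at 0, 0.111 and 0.0584.

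The HOX genes, which record position along the body axis, were expressed at 10 of 39 (25.6%), against 62.0% of all symbols. HOXC13 was the highest at 33.6, 32.7 and 33.4 (33.3 ± 0.483), followed by HOXB7 (11.7 ± 0.803), HOXC11 (10.4 ± 0.417), HOXC6 (7.40 ± 1.18) and HOXC9 (5.87 ± 0.777). The expressed genes came from the HOXA, HOXB and HOXC clusters, and no HOXD gene reached 1 TPM.

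**Figure D2:**
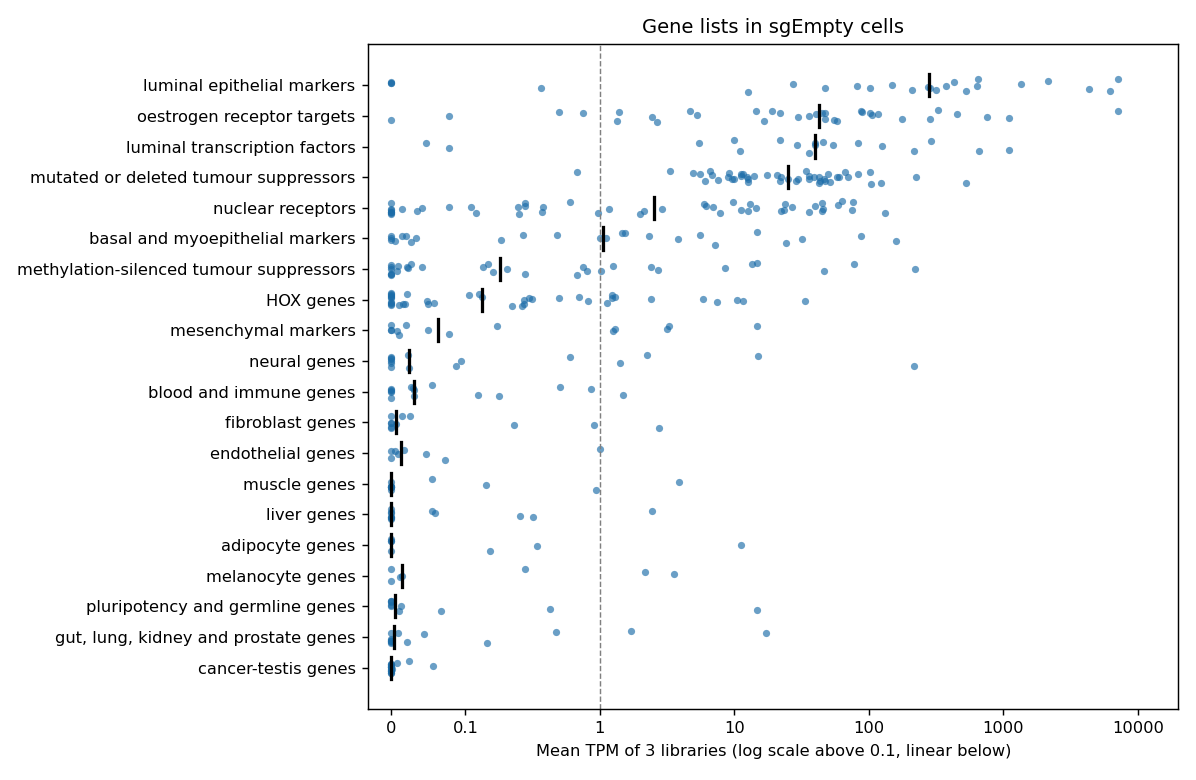
Mean TPM over the 3 sgEmpty libraries of each gene in 20 lists, 1 point a gene, on an axis that is logarithmic above 0.1 and linear below; black bars are list medians and the dashed line marks 1 TPM. The luminal epithelial list lies highest, with a median of 279 TPM, and the lists of other tissues have medians near 0 with single genes to the right.

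Tumour suppressor genes were grouped by the way they are usually lost in tumours. Of 47 measured genes that are recurrently mutated or deleted in cancer, 46 (97.9%) were expressed, with a median of 24.95 TPM. Over all symbols 62.0% were expressed, with a median of 5.80 TPM. CDKN1A, the cyclin-dependent kinase inhibitor p21, was at 225, 222 and 227 (225 ± 2.29). The inhibitor CDKN1B, p27, was at 101, 97.9 and 109 (103 ± 5.46). RB1, which holds cells in G1, was at 27.8, 29.2 and 28.9 (28.6 ± 0.727). The DNA repair genes were lower, with BRCA1 at 6.63 ± 0.525, ATM at 6.06 ± 0.727 and BRCA2 at 5.52 ± 0.685. A transcript level says nothing of mutations, which were not analysed here. KMT2D, also in this list, was not matched to a single symbol and has no value.

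The gene of this list under the threshold was CDKN2A, which encodes the cell cycle inhibitors p16 and p14ARF. It was at 0.807, 0.674 and 0.535 (0.672 ± 0.136). Its neighbours on chromosome 9 (order from RefSeq, GRCh38.p14) were set beside it. MTAP, a methionine salvage enzyme next to it, was at 0.919, 0.809 and 0.772 (0.833 ± 0.0761), also under 1 TPM in every library. On the other side CDKN2B, which encodes p15, was at 12.7, 12.2 and 12.9 (12.6 ± 0.385), and the next gene, DMRTA1, at 13.2, 10.2 and 12.6 (11.98 ± 1.598). Beyond MTAP all 16 type I interferon genes of the run were listed at 0, and the ubiquitin ligase adaptor KLHL9, which lies among them, was at 17.3, 17.4 and 16.6 (17.1 ± 0.433). Farther out, KIAA1797 (now FOCAD) was at 24.7 ± 1.33. MTAP and CDKN2A were not the only low genes of the region. In the fixed list 9 of 18 genes, that pair included, were under 1 TPM, against 7235 of 19035 symbols. PTPLAD2, between KIAA1797 and the interferon genes, was at 0.581, 0.0877 and 0, and ELAVL2, a neuronal gene beyond DMRTA1, at 0.834 ± 0.166. SLC24A2 (0.0393) and LRRC19 (0.0531) were near 0, and the endothelial receptor TEK was listed at 0. DNA copy number was not analysed here.

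Genes described in the literature as silenced by promoter methylation were mostly low: 20 of 30 were under 1 TPM and the median was 0.182 TPM, against 7235 of 19035 symbols under 1 TPM. GSTP1, the glutathione transferase pi, was listed at 0, as were the Wnt antagonists DKK3 and WIF1, the secreted protein SCGB3A1 and WT1. Cyclin D2 (CCND2) was at 0.148, 0.201 and 0.0887 (0.146 ± 0.0563), and the Wnt antagonist SFRP1 at 0, 0 and 0.0263. The kinase DAPK1 was at 0.136 ± 0.00681. The 10 expressed genes were led by THBS1, thrombospondin 1, at 236, 215 and 205 (219 ± 15.7), the 14-3-3 protein SFN at 85.5, 71.5 and 77.2 (78.1 ± 7.07) and the repair enzyme MGMT at 48.4, 48.001 and 43.5 (46.6 ± 2.74). CAV1 (14.8 ± 0.521), TIMP3 (13.5 ± 0.549), RASSF1 (8.45 ± 0.849), SLIT2 (2.68 ± 0.125), HOXA5 (2.40 ± 0.536), TFPI2 (1.26 ± 0.649) and DLC1 (1.02 ± 0.0293) were the others. RASSF1 has isoforms with separate promoters, which the gene-level value joins. Methylation was not analysed here.

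The promoter windows of GSTP1 and LDHB are printed because both genes were listed at 0 in every library. LDHB encodes the H subunit of lactate dehydrogenase. GSTP1 lies at chr11:67583662-67583811 on the plus strand and LDHB at chr12:21657843-21657992 on the minus strand, in the same build and format as above.
GSTP1: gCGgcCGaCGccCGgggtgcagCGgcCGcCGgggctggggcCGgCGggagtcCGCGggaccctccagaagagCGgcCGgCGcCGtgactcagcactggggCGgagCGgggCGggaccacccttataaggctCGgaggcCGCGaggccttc
LDHB: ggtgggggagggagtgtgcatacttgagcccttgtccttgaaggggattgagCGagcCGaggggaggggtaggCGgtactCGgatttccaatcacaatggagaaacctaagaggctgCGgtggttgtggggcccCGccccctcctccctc
The GSTP1 window holds 21 CG, a number that 9.86% of all windows reach, and LDHB holds 6, which 54.4% reach. GSTP1 thus has a denser window than FOXA1, which was expressed. The window printed for KRT8, among the highest transcripts, has almost none, but it need not be the start used. XBP1, at 1107.5 TPM, has windows with 23 and 16 CG, and the 6 GATA3 windows hold 2 to 21. The window of AGR3, listed at 0, holds 1 CG. Over all genes no relation of promoter letters to level is given, because only 78.1% of symbols had a window.

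Of 11 caspases, the proteases of cell death, 7 (63.6%) were expressed, near the 62.0% of all symbols. CASP6, an executioner, was at 20.9, 22.1 and 18.7 (20.6 ± 1.68). The initiators CASP9, at 9.10, 9.82 and 10.8 (9.91 ± 0.866), and CASP8, at 9.79, 7.88 and 9.04 (8.90 ± 0.962), overlap between libraries and are not separated. CASP10, CASP1, CASP14 and CASP5 were under 1 TPM.

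The most abundant transcripts were mainly those of translation. The 10 highest symbols held 8.201% ± 0.226 of all TPM, the 100 highest 37.8% ± 0.426 and the 1000 highest 68.7% ± 0.226. Ribosomal protein genes alone held 27.2% ± 0.520. They filled 20 of the 30 highest places, and 73 of their 90 symbols were at 1000 TPM or more. RPL39, of the large subunit, was first at 10644, 11363 and 11146 (11051 ± 369), followed by RPS27 of the small subunit at 9242, 9592 and 9776 (9537 ± 272). TPT1, a growth-related protein with the same kind of 5′ leader control as ribosomal genes, was the third at 8791, 9511 and 9482 (9261 ± 408). Replicate 1 was the lowest library for all of these and for 52 of the 73 ribosomal genes at 1000 TPM or more. Ribosomal protein genes, TPT1 and EEF1A1 have many near-identical pseudogenes, so the reads credited to each are uncertain.

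The other large subunit genes among the 30 highest were RPL37A, RPL12, RPL30, RPL7A, RPL13, RPL8, RPL26, RPL35 and RPL31, with RPLP1 of the stalk, and the small subunit genes were RPS18, RPS29, RPS3, RPS2, RPS15A, RPS25, RPS24 and RPS6. The 8 symbols besides TFF1 and TPT1 that encode no ribosomal protein were led by TMSB10, an actin monomer-binding peptide, at 6543, 6726 and 6383 (6551 ± 172). ATP5E, a subunit of mitochondrial ATP synthase, was at 5994, 6448 and 6345 (6262 ± 238). GNAS, the stimulatory G protein alpha subunit, was at 6131, 5848 and 5825 (5935 ± 171). GAPDH, of glycolysis, was at 5740.4, 5612 and 5603 (5652 ± 76.8), and the elongation factor EEF1A1 at 5362, 5491 and 5404 (5419 ± 65.9). GNB2L1, now RACK1, a scaffold on the small subunit, closed the list at 4362, 4312 and 4259 (4311 ± 51.7), after KRT8 and KRT18. The luminal genes TFF1, KRT8 and KRT18 were thus the lineage-specific members among the 30 highest.

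**Figure D3:**
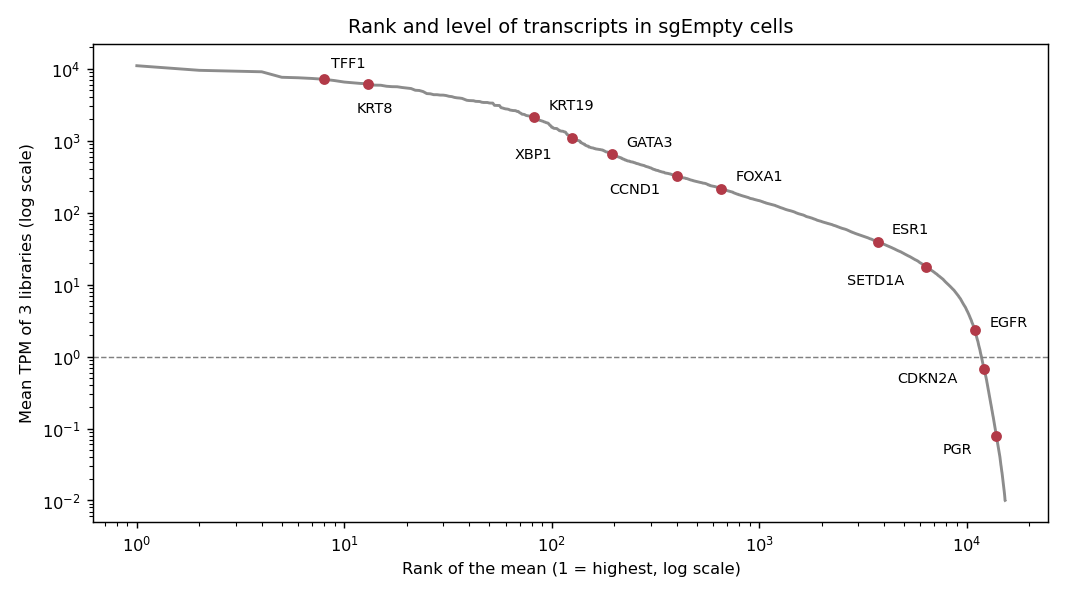
Mean TPM of the 3 sgEmpty libraries against rank for symbols at 0.01 TPM or more, both axes logarithmic, with 12 genes marked; the dashed line is 1 TPM. TFF1 and KRT8 lie among the highest, ESR1 at rank 3727 is far below its target TFF1, and PGR at rank 13933 is near the low end.

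Libraries were close to each other, which sets the precision of these levels. Across genes, which are not independent replicates, Pearson correlations of log2(TPM + 1) between pairs of libraries were 0.9985, 0.9983 and 0.9986. The median coefficient of variation (SD over mean) was 2.34% for symbols at 1000 TPM or more, 4.09% between 10 and 100 TPM and 32.6% between 0.1 and 1 TPM. Among symbols with a mean of at least 10 TPM, the least variable was RPL7A at 5502, 5504 and 5503, followed by H2AFY, ATP11B, E2F5, YDJC, KITLG, ZNF641, EIF2B4, CDK9 and ZNF544, with coefficients of variation of 0.0215% to 0.157%. The most variable was PLSCR3, a phospholipid scramblase, at 19.2, 9.44 and 9.17, high in replicate 1 alone. HIST1H2BE (36.4%) and HIST1H2BH (32.8%), replication-dependent histone genes whose mRNAs lack a poly(A) tail, came next, then RBM14-RBM4, ZNF789, BSCL2, SPC24, SCO2, LTB4R and the metallothionein MT1G, at 24.95% to 29.0%. RBM14-RBM4 is a readthrough of overlapping genes, so its reads cannot be told apart from theirs.

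Paralogs, genes that arose by duplication, often share a function, and which of them a cell uses was read from their levels. Of 72 sets fixed, 70 had at least 2 measured members. The member with the highest mean was called the leader, and its lead is the mean over libraries of the log2 ratio of (TPM + 1) to the runner-up. In all 70 sets every library of the leader lay above every library of the other members; the leader was picked from the same libraries, so this is a description. The lead was at least 1 log2 in 51 sets and under 0.5 in 13, and in 26 sets the leader held 90% or more of the set's summed TPM.

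Several luminal identity genes were mostly carried by a single paralog. The split was less wide in the AP-2 set, where TFAP2C held 75.5% of the summed TPM. Among classical cadherins CDH1 held 85.7%. The lead of FOXA1 over FOXA2 (0.219 ± 0.0193) was 7.48 ± 0.0686 on the log2 scale, that of GATA3 over GATA2 (9.16 ± 1.07) 6.01 ± 0.139, and that of ESR1 over ESR2 5.00 ± 0.0605. TFF1 led TFF3, at 298, 290.3 and 266, by 4.65 ± 0.0425, and TFF2 was listed at 0. AGR2 had a neighbour and paralog, AGR3, listed at 0 in every library. Their promoters are printed because the neighbours lie at the ends of the range: AGR2 at chr7:16805000-16805149 and AGR3 at chr7:16881984-16882133, both on the minus strand of GRCh38.p14.
AGR2: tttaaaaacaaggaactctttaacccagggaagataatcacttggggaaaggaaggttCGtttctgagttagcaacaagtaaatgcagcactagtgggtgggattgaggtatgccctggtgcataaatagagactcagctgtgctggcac
AGR3: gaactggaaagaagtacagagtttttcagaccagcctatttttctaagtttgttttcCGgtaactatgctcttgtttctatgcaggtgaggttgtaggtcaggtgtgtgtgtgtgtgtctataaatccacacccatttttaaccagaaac
Each holds 1 CG. The AGR3 window holds the letters TATAAA on the gene's strand, as do 4.54% of all windows of this length, and the AGR2 window does not. The motif was searched as those 6 letters on that strand only.

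**Figure D4:**
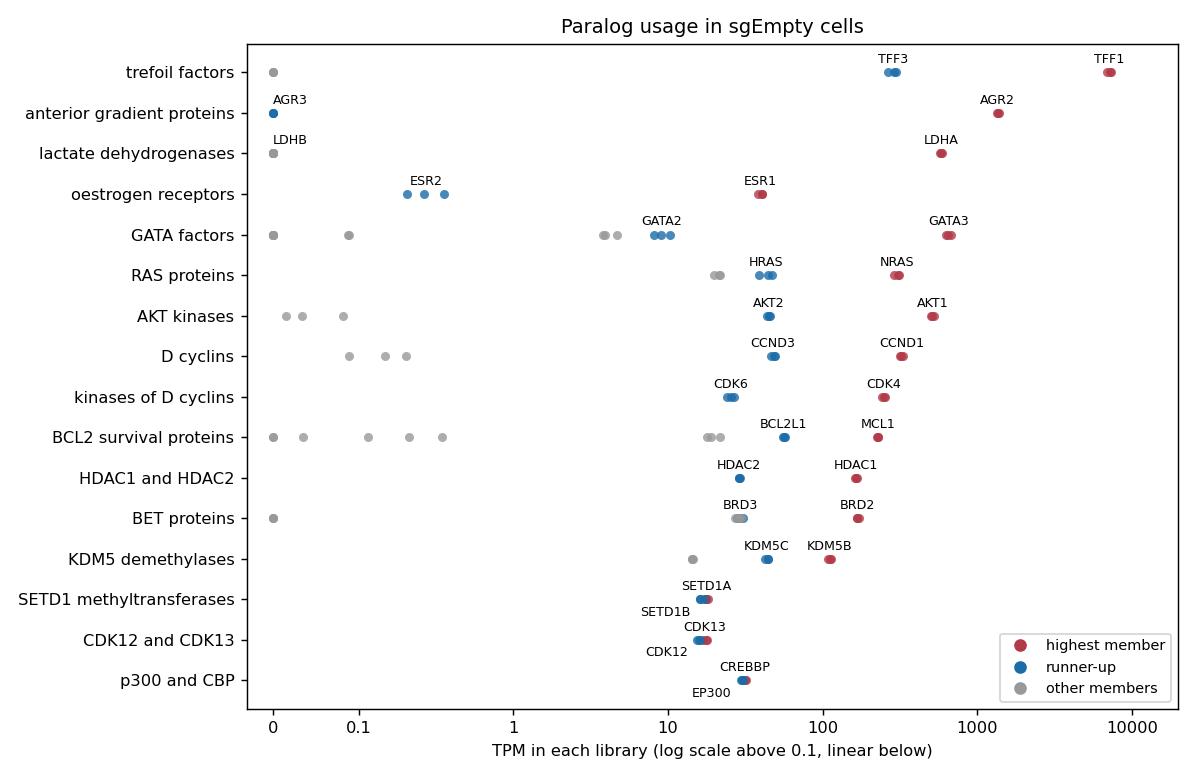
Level in each sgEmpty library of the members of 16 paralog sets, in TPM on an axis that is logarithmic above 0.1 and linear below; red points are the member with the highest mean, blue the runner-up and grey the others. The trefoil, anterior gradient and lactate dehydrogenase sets are widely split, and SETD1A with SETD1B, CDK13 with CDK12 and CREBBP with EP300 lie almost on top of each other.

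Of the cell cycle paralogs, the D cyclins and their partner kinases each had a clear leader. CCND1 led CCND3 (48.9, 48.3 and 46.6) by 2.73 ± 0.0685, and CCND2 was under 1 TPM. CDK4, the partner kinase of D cyclins, was at 254, 248.8 and 242 (248 ± 5.997) and CDK6 at 24.1, 25.6 and 26.8 (25.5 ± 1.39), a lead of 3.23 ± 0.110. The E cyclins were nearer to each other, with CCNE2 at 18.1 ± 0.642 and CCNE1 at 15.7 ± 0.567. In the retinoblastoma family RB1 led RBL2 (25.1, 25.1 and 26.5) by only 0.16 ± 0.0456, and RBL1 was at 4.93 ± 0.329.

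Signalling kinases and GTPases also had clear leaders. AKT1 was at 512, 504 and 524 (513 ± 9.83) and AKT2 at 44.7 ± 1.23, so AKT1 held 92.0% of the AKT transcripts. NRAS was at 290.1, 306 and 314 (303 ± 12.1), against the runner-up HRAS at 38.8, 47.1 and 44.1. Among catalytic subunits of PI3 kinase, PIK3CB (37.4 ± 0.466) led PIK3CA (10.99 ± 0.481) by 1.68 ± 0.0711.

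Survival proteins of the BCL2 family were led by MCL1, at 227, 226 and 229 (228 ± 1.63). BCL2L1, the gene of BCL-XL, was at 56.7, 55.4 and 56.1 (56.1 ± 0.661), a lead of 2.0015 ± 0.0188 for MCL1. BCL2 itself, often listed as an oestrogen target in breast tumours, was at 0.114, 0.212 and 0.0357 (0.121 ± 0.0885).

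Chromatin regulators held both kinds of set. BRD2, a bromodomain reader, was at 166, 166 and 173 (169 ± 3.82), well above BRD3 (29.3 ± 1.23), the runner-up. HDAC1 was at 164 ± 2.65 and HDAC2 at 28.9 ± 0.158, a lead of 2.47 ± 0.0284. The H3K4 demethylase KDM5B was at 113, 111 and 108 (111 ± 2.28), KDM5C at 43.6 ± 0.915 and KDM5A at 14.3 ± 0.122. EZH2 (32.5 ± 0.396) led EZH1 (5.85 ± 0.582) by 2.29 ± 0.106, and SMARCA4 (104 ± 6.40) led SMARCA2 (36.1 ± 0.654) by 1.501 ± 0.110.

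The closest pairs were also regulators of chromatin and transcription. SETD1A, the H3K4 methyltransferase studied in the series, was at 17.5, 17.5 and 18.1 (17.7 ± 0.309) and SETD1B at 16.1, 16.1 and 17.1 (16.4 ± 0.543), a lead of 0.10 ± 0.0209. CDK13 was at 17.9, 16.8 and 17.5 (17.4 ± 0.580) and CDK12, the other cyclin K kinase, at 16.1, 16.0 and 15.3 (15.8 ± 0.432), a lead of 0.13 ± 0.0598. The acetyltransferases CREBBP, at 30.8, 31.5 and 31.8, and EP300, at 30.1, 30.6 and 29.7, differed by 0.05 ± 0.0338. Each pair kept its order in every library, but after rescaling libraries by median ratios CREBBP and EP300 overlapped.

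Metabolic paralogs ranged from widely split to close. LDHA was at 589, 583 and 577 (583 ± 5.97) with LDHB listed at 0. ALDOA (2235 ± 97.5) held 99.6% of the aldolase transcripts, ENO1 (1788 ± 52.7) 98.1% of the enolases and SLC2A1 (76.3 ± 5.61) 99.8% of the glucose transporter set. HK1 was at 229.9, 226 and 218 and HK2, the hexokinase often raised in tumours, at 19.4, 19.4 and 19.7. The phosphofructokinases were closer, with PFKP at 194 ± 7.23 and PFKL at 144 ± 2.29, a lead of 0.42 ± 0.0307. Of the elongation factors of translation, EEF1A2, usually a gene of neurons and muscle, was at 2799, 2544 and 2607 (2649.9 ± 132), within 1.03 ± 0.0873 log2 of EEF1A1.

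High levels were also read along the chromosomes, in an analysis chosen after values had been seen. The 30 genes of 17q23 and 20q13 reported as amplified in breast cancer had a median of 119.8 TPM. Of them 27 (90%) were expressed, against 62.0% of all symbols, and 18 were at 100 TPM or more. In 17q23 all 14 genes were expressed and their median was 154, 153 and 151 TPM in replicates 1 to 3; the 696 other expressed genes of chromosome 17 had a median of 24.4. In 20q13, 13 of 16 were expressed, those 13 had a median of 124, and the 295 other expressed genes of chromosome 20 had 21.6. The genes were collected from tumour biology and not at random, so the gap is a description.

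On 17q23 the clathrin heavy chain CLTC was at 612, 602 and 586 (599.9 ± 12.95), the autophagy protein VMP1 at 509 ± 10.3 and the S6 kinase RPS6KB1 at 308, 321 and 321 (317 ± 7.82). The phosphatase PPM1D was at 116 ± 1.52, and the T-box factor TBX2 at 57.7. On 20q13 the sulphatase SULF2 was at 557, 528 and 527 (537 ± 17.03), the repressor ZNF217 at 263, 265 and 268 (265 ± 2.51) and the mitotic kinase AURKA at 118, 112 and 109 (113 ± 4.44). NCOA3 and TFAP2C, given above, lie there too. The 20q13 genes under 1 TPM were CYP24A1 (0.265), which degrades vitamin D, TSHZ2 (0.357) and DOK5 (0.0230).

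Levels were then read along the gene order without a list. For windows of 15 neighbouring expressed genes, 11251 in all, the median of the window medians was 21.4 TPM and the 99th percentile 81.2. The highest window ran from CSTF1 to SLMO2 on chromosome 20, with a median of 200.1 TPM and 12 of 15 genes at 100 TPM or more. This place depends on the length: with 9 genes the highest window was S100A10 to S100A13 on chromosome 1, at 783 TPM, and with 25 genes DPM1 to ATP5E on chromosome 20, at 144. It holds GNAS and ATP5E beside BMP7, a growth factor, at 196 ± 6.06 and the TGF-beta regulator PMEPA1 at 272 ± 8.05, and without its 3 highest genes its median was 170.1. On chromosome 17 the window from GDPD1 to BCAS3 had a median of 151 TPM, and 125 without its 3 highest. On chromosome 1 the window from ILF2 to HAX1 had a median of 139, and 74.96 without its 3 highest, and that from AP4B1 to IGSF3 had 128, and 78.0 without them. The latter includes NRAS, the splicing factor BCAS2 at 754, 761 and 793 and TRIM33 at 164, 165 and 170.2. A window from ERBB4 to AAMP on chromosome 2 had a median of 157, but 21.5 without its 3 highest genes, so it rests on few transcripts. Windows overlap, and copy number was not analysed here.

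**Figure D5:**
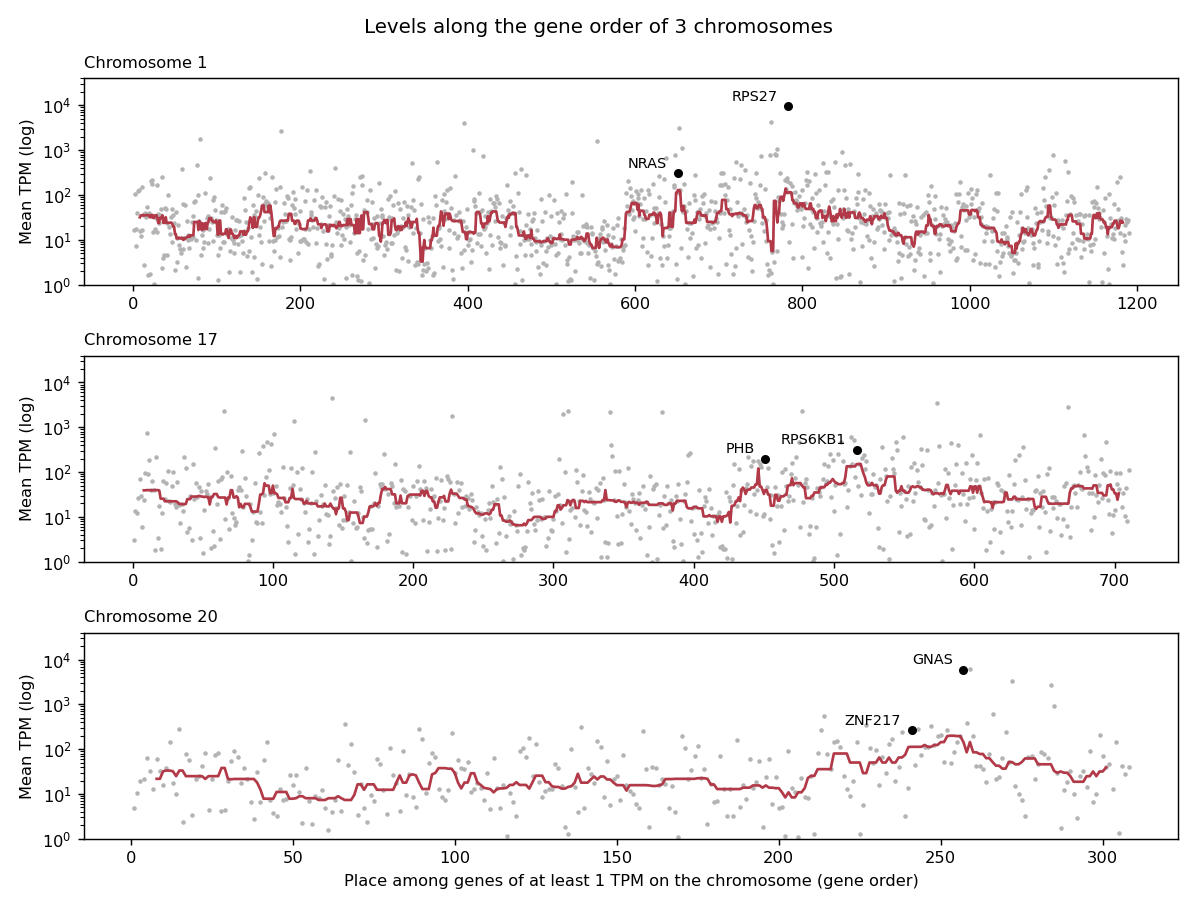
Mean TPM (logarithmic axis) of genes at 1 TPM or more, in their order along chromosomes 1, 17 and 20; grey points are genes, the red line is the median of 15 neighbouring genes and black points are named genes. The line stays under 100 TPM along most of each chromosome and passes it near NRAS and RPS27 on chromosome 1, near PHB and RPS6KB1 on chromosome 17 and between ZNF217 and GNAS on chromosome 20.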

How the data were processed

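RNA was measured in 3 sgEmpty libraries, and the other 5 samples were not used here. The values are TPM deposited by the authors, 1 column a library, which is a normalized unit of another kind than read counts and keeps no depth. Tools named in the submitters' processing notes are RSEM 1.3.1, STAR 2.6.0c and bcl2fastq 2.20.0, with the build hg19; the role of each is not given. An unnamed row of 1000000 in each library, the column total, was left out. Of 19035 symbols, 17029 were current in the name tables given, 1728 matched as older names and 278 did not match. Means, SDs, ranks and list counts were computed with Python 3.11.15 and pandas 2.3.3; a mean of 1 TPM was the threshold, and 1 TPM was added before log2 ratios. The code was tested on simulated data. The 28 lists, 72 paralog sets and the control libraries were chosen with earlier results of these data known. The text names the 30 highest symbols, the 10 most and least variable at 10 TPM or more, fixed markers, the highest list members that can be given and list members at or above the threshold; neighbour windows of 15 genes and their genes, PSMB8 and SNRPN were chosen after values were seen. Gene order and promoters came from RefSeq (GRCh38.p14), not hg19; a planned check of promoter letters over all genes was void, because 78.1% of symbols had a window against a minimum of 80%. Alternatives were thresholds of 0.5 and 5 TPM, rescaling, pseudocounts of 0.1 and 0.5 and leaving out each library. Some members of the lists are not reported here.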

Additional observations from a re-analysis of the deposited data

How the results depend on the processing

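Over 137 alternatives of 28 results, 125 stayed within the spread between replicates or within 1.5 times the count, and 12 moved. Leaving out 1 of 3 libraries cannot shift a mean by a full SD, so marker levels could only stay in those alternatives. Lists with nearly all members under 1 TPM, such as 14 of 15 blood and immune genes, could not move at 5 TPM. Their counts cannot fall at a higher threshold or pass the list size. The 125 therefore include alternatives that could not move and are no measure of robustness. Leaving out the 90 ribosomal protein genes and rescaling multiplied every other level by 1.36 to 1.38, by construction. The share of the 100 highest became 25.5%, ESR1 54.6 TPM, GATA3 897, FOXA1 297, KRT8 8539 and KRT18 5931. The medians of all 14 genes of 17q23 and all 16 of 20q13, 153 and 112 as deposited, became 209.7 and 155. Of the mutated or deleted tumour suppressors, 0 were under a threshold of 0.5 TPM and 3 under 5 TPM (CDKN2A, PTCH1 and FHIT). The highest neighbour window had a median of 783 TPM with 9 genes (S100A10 to S100A13, chromosome 1) and 144 with 25 genes (DPM1 to ATP5E, chromosome 20), so its place depends on the length. Detected genes numbered 12441 at 0.5 TPM and 9806 at 5 TPM. Without each library in turn they numbered 11783 to 11815, and ESR1 was at 39.4 to 40.4 TPM. The leader was the same in 70 of 70 paralog sets under each alternative, and 69 were without overlap after median-ratio scaling, the exception being CREBBP with EP300. TPM gives no depth, so levels under 1 TPM, where libraries varied by a median of 32.6%, carry no counting interval. No paired analysis was possible because only 1 group is described and no test was made.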

Other observations

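Paralog sets of housekeeping functions gave further levels. IDH2, the mitochondrial isocitrate dehydrogenase, was at 354 ± 16.9 TPM and the cytosolic IDH1 at 99.8 ± 3.34, a lead of 1.81 ± 0.0218 on the log2 scale. Of the nucleoside diphosphate kinases NME2 was at 2339.7 ± 12.2 and NME1 at 473 ± 3.69; the genes are neighbours with a readthrough transcript, so the split between them is uncertain. The respiratory subunits COX4I1 (1329 ± 15.5), COX6A1 (1214 ± 39.2) and COX7A2 (329 ± 12.5) each held over 99% of their sets, the muscle or lung paralogs being near 0. SOD1, the cytosolic superoxide dismutase, was at 261 ± 4.65 and the mitochondrial SOD2 at 26.5 ± 0.795. PKM2 (1039 ± 37.1), here the symbol of the whole pyruvate kinase M gene and not of an isoform, stood against PKLR at 0.0338 ± 0.0293. Among 14-3-3 proteins YWHAZ (987 ± 10.7) led YWHAE (759 ± 12.7) by 0.38 ± 0.0264. The cytoplasmic actins ACTB (3520.3 ± 172) and ACTG1 (2886 ± 72.5) lay within 0.29 ± 0.0383 of each other.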
